A study of Mus musculus with 6 samples.

Results

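Pax2, Lhx1, Lhx5, Lbx1, Lmx1b, Tlx3, En1, Foxp2 and Pou4f1 encode transcription factors that divide the developing spinal cord into classes of interneurons. They were taken by gene name, and all 9 are among the 25576 genes listed in at least 1 of the libraries. The study profiled whole spinal cord from a mouse model of severe spinal muscular atrophy (SMA) at postnatal day 4. In SMA, too little SMN protein is made and motor neurons degenerate. SMA mice had the genotype mSmn-/-, hSMN22tg/0 and control mice mSmn+/-, hSMN22tg/0, so both groups carried the human SMN2 transgene, both were of the FVB strain, and control mice had lost a single mouse Smn allele. Each group had 3 libraries, described as triplicates with n = 1 per group, so p-values below measure the spread between libraries, which may be technical, and not a spread between animals known to be separate.

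Spinal interneurons arise from progenitor domains stacked from dorsal to ventral, and each class keeps a code of homeodomain and paired-domain factors after its last division. In the dorsal horn, Lbx1 marks classes that include those settling in the superficial and intermediate layers. Among their descendants Pax2, Lhx1 and Lhx5 go with inhibitory, GABA- or glycine-releasing neurons, while Tlx3 and Lmx1b go with excitatory, glutamate-releasing ones. Pou4f1 (Brn3a) marks several dorsal excitatory classes and also sensory neurons of the dorsal root ganglia. En1 marks the ventral V1 class of inhibitory interneurons that contact motor neurons, and Foxp2 marks a subset of that class.

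Expression is given as FPKM, in which the fragments mapped to a gene are scaled to its exon length and to the mapped total of the library. Values per library are written in the order of control replicates 1, 2 and 3 and then SMA replicates 1, 2 and 3, and replicate numbers carry no order or pairing. The targeted gene, Smn1, was at 10.4, 8.64 and 11.9 FPKM in control and 8.48, 9.30 and 11.1 FPKM in SMA (log2 fold change of SMA over control -0.09, SE 0.15, limma adjusted p = 0.819). The groups overlapped at this level, also without control replicate 2 (log2 fold change -0.20), so FPKM alone did not separate the genotypes. After each library was divided by the geometric mean of its pan-neuronal genes, Smn1 was lower in SMA with no overlap, with a log2 fold change of -0.37 (limma adjusted p = 0.579) and of -0.26 without control replicate 2 (adjusted p = 0.433). Of all genes, 20.2% were lower without overlap under this scaling, and 22% with control replicate 2 also left out. The direction of Smn1 is the one the labels give, though neither value passed adjustment. The median over all genes was also below 0 under this scaling.

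Control replicate 2 stood apart from the other 5 libraries. Genes of a 24-gene hepatocyte list took 8.02% of all FPKM in it, against 0.0264% and 0.0186% in the other control libraries and 0.0148%, 0.0330% and 0.0179% in SMA. The most abundant of them, Alb, was at 44.6, 15894 and 30.7 FPKM in control and 24.6, 56.2 and 30.5 FPKM in SMA. Neuronal genes were low in the same library: the geometric mean of 20 pan-neuronal genes was 162, 98.6 and 164 FPKM in control and 165, 172 and 175 FPKM in SMA. The 9 factors followed, with summed levels of 73.3, 46.9 and 66.4 FPKM in control and 76.8, 77.0 and 76.5 FPKM in SMA. Relative to the mean of control replicates 1 and 3, control replicate 2 held 0.258 (En1) to 1.27 (Foxp2) times the level of each factor, with a median of 0.615, close to the 0.606 of the pan-neuronal genes. Foxp2 was thus the factor that was not low in it. The part of these other transcripts in the comparisons below was not tested, and the values of the 9 factors and of the gene lists are therefore given with and without this library.

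**Figure D1:**
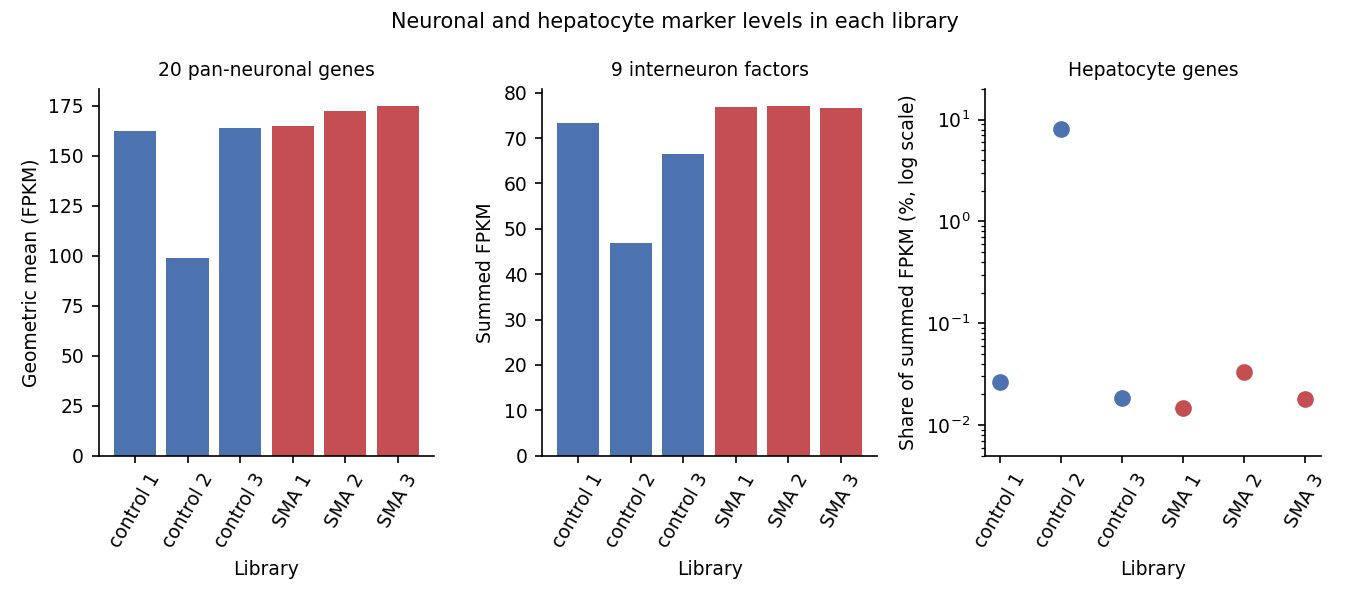
The panels show, for the 3 control (blue) and 3 SMA (red) libraries, the geometric mean FPKM of 20 pan-neuronal genes (bars), the summed FPKM of the 9 interneuron factors (bars) and the hepatocyte share of all FPKM in percent on a log axis (points). Control replicate 2 is lowest in the first panels (98.6 and 46.9 FPKM) and highest in the last (8.02%).

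All 9 factors passed the filter on low values, set at an average of 0.5 FPKM across the 6 libraries, which 17088 genes passed. None differed between SMA and control at a limma p adjusted over all genes tested (Benjamini-Hochberg) under 0.05, and neither did any other gene (0% lower and 0% higher), with a smallest adjusted p of 0.683. At an unadjusted limma p under 0.05, 2 of the 9 were higher in SMA (Pax2 and Pou4f1) and 0 lower, against 3.4% and 2.39% of all genes. Levels in the groups did not overlap for 3 factors, all higher in SMA (Pax2, Pou4f1 and Lhx1), and 10.3% of all genes were higher and 6.67% lower in this way. All 9 log2 fold changes were above 0, as were 58% over all genes, and their median was 0.23 against 0.04 over all genes. In whole tissue, fewer cells of a type and less RNA per cell cannot be told apart.

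Without control replicate 2, 16574 genes were tested and the same 2 factors had an unadjusted p under 0.05, against 5.27% of all genes higher and 5.2% lower. Pax2, Pou4f1 and Lhx1 again had higher, non-overlapping levels in SMA, as did 14.2% of all genes, while 13.9% were lower without overlap. Lbx1 then turned to a negative log2 fold change, the other 8 stayed above 0 against 50.4% of all genes, and the median of the 9 was 0.07 beside 0.00 over all genes. None of the factors passed an adjusted p under 0.05, which 0% of genes passed as lower and 0.0121% as higher. Those were Snora74a and Rpph1, small RNA genes named after their values were seen.

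**Figure D2:**
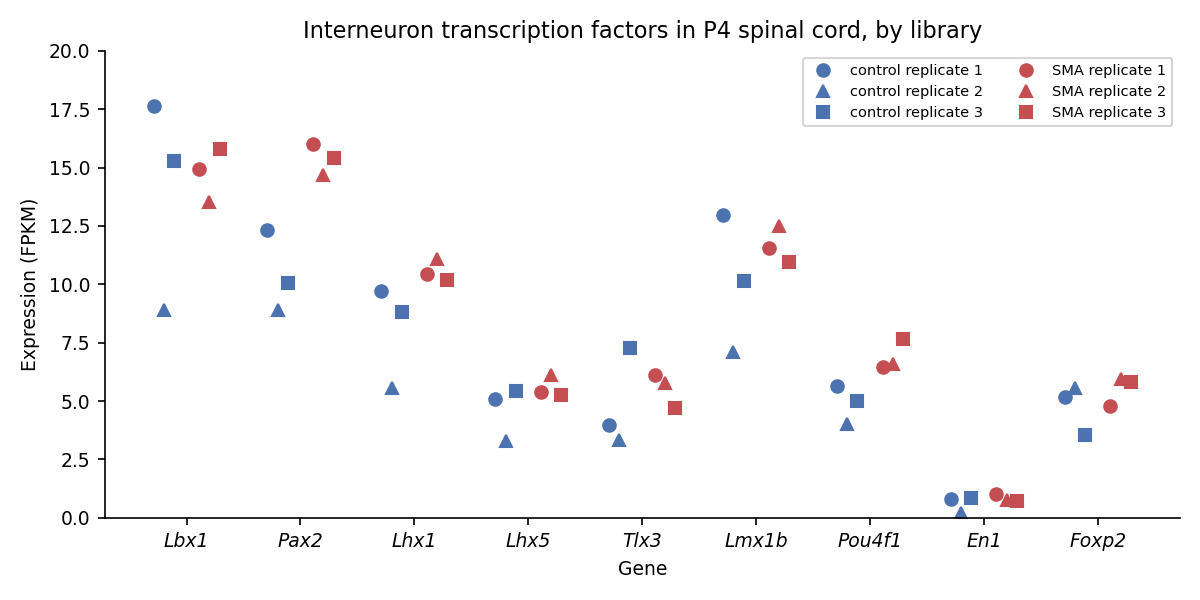
Points are the FPKM of each of the 9 factors in each library, control in blue and SMA in red, with a circle, triangle and square for replicates 1, 2 and 3. Pax2, Lhx1 and Pou4f1 are the factors whose groups do not overlap, and control replicate 2 (blue triangle) is the lowest library for every factor but Foxp2 (5.56 FPKM).

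Pax2, on chr19:44756045-44837871 (GRCm38, plus strand, ENSMUSG00000004231), is required in inhibitory dorsal horn neurons for their transmitter identity. Its level was 12.3, 8.89 and 10.1 FPKM in control (10.4 ± 1.74, mean ± SD, 3 libraries) and 16.0, 14.7 and 15.4 FPKM in SMA (15.4 ± 0.673). Every SMA library lay above every control library, and the SMA libraries were closer to each other than the control libraries were. The log2 fold change was 0.53 (SE 0.13, limma p = 0.00515, adjusted p = 0.683), and the exact two-sided permutation p was 0.1, the smallest that 3 libraries against 3 can give. Leaving out control replicate 2 gave 0.43 (SE 0.10, limma p = 0.00288, adjusted p = 0.300, exact permutation p = 0.1, again the smallest possible), with a ratio of mean FPKM of 1.37 in place of 1.47. Of the 9 factors, Pax2 had the highest fold change in both fits.

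Lhx1 and Lhx5 encode LIM-homeodomain factors that act together in the same inhibitory neurons to hold Pax2 expression. Lhx1, on chr11:84518284-84525535 (minus strand), was at 9.70, 5.58 and 8.83 FPKM in control and 10.4, 11.1 and 10.2 FPKM in SMA. All 3 SMA libraries lay above all 3 control libraries, by a small margin over control replicate 1. Its log2 fold change was 0.39 (SE 0.19, limma adjusted p = 0.683) and 0.17 (SE 0.09, adjusted p = 0.547) without control replicate 2, so much of the estimate rested on that library. Lhx5, on chr5:120431699-120441223 (plus strand), was at 5.09, 3.31 and 5.43 FPKM in control and 5.40, 6.10 and 5.26 FPKM in SMA. Its groups overlapped, control replicate 2 was the low library, and the log2 fold change of 0.25 (SE 0.17) was 0.07 without it.

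Lbx1, on chr19:45232684-45235812 (minus strand), acts upstream of Pax2 and Lhx1 in the classes that become inhibitory. It was at 17.6, 8.88 and 15.3 FPKM in control and 14.9, 13.5 and 15.8 FPKM in SMA. Control replicates 1 and 2 were the highest and lowest of the 6 libraries, and the SMA libraries fell between them. Over all libraries Lbx1 had a log2 fold change of 0.13 (SE 0.24, limma adjusted p = 0.838) and of -0.15 (SE 0.10, adjusted p = 0.635) without control replicate 2, so its direction turned with that library.

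Promoters are shown for the 3 factors whose groups did not overlap, since these had the separated levels. The 250 bases upstream of a RefSeq transcript start (GRCm38.p6) were available for 6 of the 9 factors, for Pax2 at 3 starts of which the nearest to the annotated gene start is used, and are written 5′ to 3′ on the gene's strand: Pax2 from chr19:44755502-44755751 (plus), Pou4f1 from chr14:104468000-104468249 (minus) and Lhx1 from chr11:84525535-84525784 (minus). Capitals mark matches, on either strand, to CCAAT, read as ATTGG on the other strand, to GGGCGG, read as CCGCCC on the other strand, and to CAGCTG.
Pax2: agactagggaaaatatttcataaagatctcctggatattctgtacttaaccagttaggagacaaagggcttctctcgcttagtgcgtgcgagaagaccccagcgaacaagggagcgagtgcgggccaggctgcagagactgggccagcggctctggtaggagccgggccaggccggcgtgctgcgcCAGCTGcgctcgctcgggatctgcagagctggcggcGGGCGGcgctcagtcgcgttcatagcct
Pou4f1: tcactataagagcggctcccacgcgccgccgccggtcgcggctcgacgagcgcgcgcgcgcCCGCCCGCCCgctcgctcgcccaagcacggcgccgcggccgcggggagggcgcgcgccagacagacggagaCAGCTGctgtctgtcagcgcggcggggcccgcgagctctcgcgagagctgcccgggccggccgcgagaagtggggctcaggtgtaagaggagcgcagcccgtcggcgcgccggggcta
Lhx1: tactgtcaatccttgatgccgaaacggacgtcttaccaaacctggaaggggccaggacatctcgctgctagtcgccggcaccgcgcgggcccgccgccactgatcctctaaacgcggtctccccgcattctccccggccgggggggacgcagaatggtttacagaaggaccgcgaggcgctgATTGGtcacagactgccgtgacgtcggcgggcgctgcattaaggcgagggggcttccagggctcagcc
The Pax2 window held 1 GGGCGG and 1 CAGCTG match, the Pou4f1 window 2 overlapping GGGCGG matches and 1 CAGCTG match, and the Lhx1 window 1 CCAAT match. These letters are common: of 32851 RefSeq windows of the same length, 33.8% held CCAAT, 32.7% GGGCGG and 13.0% CAGCTG, and of the 6 factors, with 1 window each, 4, 3 and 2 did. No match to TAATTA (4.84% of windows) or TATAAA (12.4%) was present in the 6. The printed windows were rich in CpG, with 20 in Pax2, 47 in Pou4f1 and 26 in Lhx1 against a median of 6, and their GC content was 60.8%, 78% and 64.8% against a median of 52.4%. They share no motif of the 5 searched across all 3. The other Pax2 windows differed from the printed one: chr19:44746351-44746600 held 5 CpG, 52.8% GC and none of the 5 motifs, and chr19:44756656-44756905 held 25 CpG, 72.8% GC and 1 GGGCGG match.

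Tlx3, on chr11:33200752-33203589 (minus strand), is a selector of the excitatory fate in the dorsal horn. It was at 3.99, 3.32 and 7.27 FPKM in control and 6.11, 5.76 and 4.71 FPKM in SMA. Control replicate 3 was the highest library and the other control libraries the lowest, so the SMA values fell inside the control range. Its log2 fold change was 0.21 (SE 0.25) and 0.02 without control replicate 2, while without control replicate 3 it was 0.48 with an unadjusted p under 0.05 (limma adjusted p = 0.447). Lmx1b, on chr2:33560965-33640511 (minus strand), which acts with Tlx3 in the same neurons, was at 13.0, 7.11 and 10.1 FPKM in control and 11.6, 12.5 and 11.0 FPKM in SMA. The SMA libraries again lay within the control range, with a log2 fold change of 0.23 (SE 0.20) and of 0.02 without control replicate 2.

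Pou4f1, on chr14:104461676-104467999 (minus strand), was the excitatory-class factor whose groups separated. Its level was 5.63, 4.03 and 4.99 FPKM in control (4.88 ± 0.805) and 6.47, 6.60 and 7.67 FPKM in SMA (6.91 ± 0.661). All SMA libraries were above all control libraries, with SMA replicate 3 the highest. The log2 fold change was 0.43 (SE 0.14, limma p = 0.0173, adjusted p = 0.683, exact permutation p = 0.1), 0.33 without control replicate 2 (SE 0.12, limma p = 0.0244, adjusted p = 0.422) and 0.37 without SMA replicate 3, where the unadjusted limma p was 0.0718.

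Because Pou4f1 and Tlx3 are also expressed in dorsal root ganglia, which can stay attached to a dissected cord, a 13-gene sensory ganglion list was read beside them. Its 12 listed genes summed to 11.1, 4.74 and 7.30 FPKM in control and 9.46, 8.41 and 7.58 FPKM in SMA. Etv1, the most abundant of them and expressed by spinal neurons too, made up much of this sum, with 7.82, 3.80 and 5.13 FPKM in control and 4.41, 4.93 and 5.12 FPKM in SMA. Avil, more restricted to sensory neurons, was at 0.0922, 0.0964 and 0.117 FPKM in control and 0.722, 0.431 and 0.296 FPKM in SMA, and Scn10a at 0.372, 0.0876 and 0.162 FPKM in control and 0.904, 0.699 and 0.229 FPKM in SMA. Avil thus separated the groups in the same direction as Pou4f1, though it lay below the filter and was not tested, and SMA replicate 3, highest for Pou4f1, was the lowest SMA library for both. Avil and Scn10a were picked out after their values were seen, Mrgpra3 was listed under that symbol in none of the 6 libraries, and the part of ganglion RNA in the Pou4f1 difference was not tested.

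En1, on chr1:120602418-120607992 (plus strand), was the factor with the lowest level. It was at 0.813, 0.212 and 0.833 FPKM in control and 1.04, 0.784 and 0.712 FPKM in SMA, with a log2 fold change of 0.21 (SE 0.22, limma adjusted p = 0.717) and of 0.01 without control replicate 2. Apart from that low control library, the 5 remaining values of this V1 marker spread from 0.712 to 1.04 FPKM with the groups mixed. With a pseudocount (FPKM added before taking logs) of 0.1 in place of 1, the En1 log2 fold change was 0.54 (SE 0.53). Foxp2, on chr6:14901349-15441977 (plus strand) and also expressed outside the V1 class, was at 5.17, 5.56 and 3.56 FPKM in control and 4.79, 5.94 and 5.83 FPKM in SMA. Its low library was control replicate 3, not control replicate 2, and the groups overlapped. The Foxp2 log2 fold change of 0.19 (SE 0.17, limma adjusted p = 0.687) was 0.29 without control replicate 2 (SE 0.16, adjusted p = 0.566) and 0.0309 without control replicate 3, so the estimate rested on that low library.

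In control the order of mean levels was Lbx1 (13.9 FPKM), Pax2 (10.4), Lmx1b (10.1), Lhx1 (8.04), Pou4f1 (4.88), Tlx3 (4.86), Foxp2 (4.76), Lhx5 (4.61) and En1 (0.620 FPKM). The only neighbours in that order whose libraries did not overlap were Lhx5 and En1. In SMA the order was Pax2 (15.4 FPKM), Lbx1 (14.8), Lmx1b (11.7), Lhx1 (10.6), Pou4f1 (6.91), Lhx5 (5.59), Tlx3 (5.52), Foxp2 (5.52) and En1 (0.845 FPKM). There the libraries of neighbours did not overlap between Lbx1 and Lmx1b, Lhx1 and Pou4f1, Pou4f1 and Lhx5, and Foxp2 and En1, while those of Pax2 and Lbx1 did. With control replicates 1 and 3 alone, the control order began with Lbx1 (16.4 FPKM), Lmx1b (11.6) and Pax2 (11.2 FPKM). Pax2 thus stood below Lbx1 and Lmx1b there, with libraries that overlapped those of Lmx1b, and above both in SMA.

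A ratio between factors within a library does not depend on how the library was scaled. The ratio of Pax2 to Lbx1 FPKM was 0.698, 1.00 and 0.660 in control and 1.07, 1.09 and 0.974 in SMA. It was higher in every SMA library than in control replicates 1 and 3, while control replicate 2 lay inside the SMA range. The ratio of Lhx1 to Lhx5 was 1.91, 1.68 and 1.63 in control and 1.93, 1.82 and 1.93 in SMA, and that of Pou4f1 to Lmx1b was 0.434, 0.567 and 0.492 in control and 0.560, 0.528 and 0.701 in SMA. Both overlapped between the groups. Without control replicate 2, the ratio of Pou4f1 to Lmx1b was higher in every SMA library, while that of Lhx1 to Lhx5 still overlapped. The balance of excitatory over inhibitory factors, the mean log2(FPKM + 1) of Tlx3 and Lmx1b minus that of Pax2, Lhx1 and Lhx5, was -0.19, -0.14 and 0.11 in control and -0.19, -0.21 and -0.34 in SMA. SMA was lower on average by a difference of -0.17 (-0.21 without control replicate 2), with overlap at control replicate 1 and with the difference at -0.08 when control replicate 3, the library with high Tlx3, was left out.

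**Figure D3:**
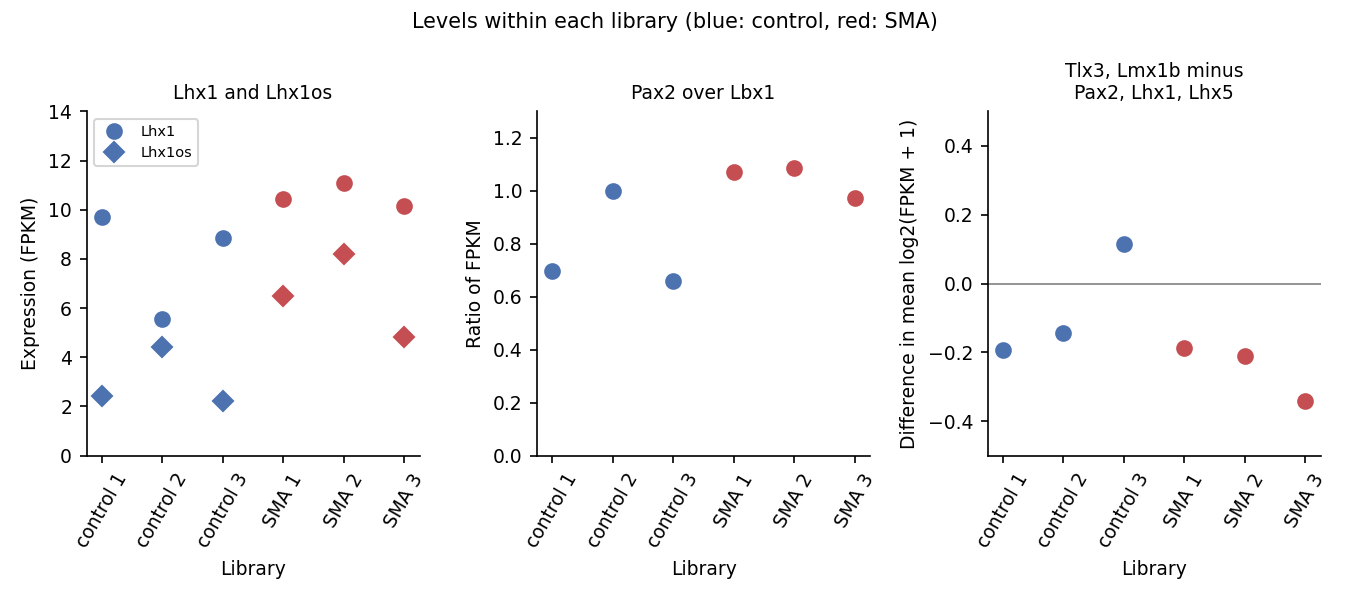
The panels show, for each control (blue) and SMA (red) library, the FPKM of Lhx1 (circles) and its divergent neighbour Lhx1os (diamonds), the ratio of Pax2 to Lbx1 FPKM, and the balance of excitatory over inhibitory factors in log2 units. Lhx1os is at 4.81 FPKM or more in SMA and at 4.42 FPKM or less in control, and the ratio of Pax2 to Lbx1 in control replicate 2 (1.00) lies within the SMA values.

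Dividing each library by its pan-neuronal geometric mean sets the factors against neuronal RNA as a whole. On that scale control replicate 2 held 0.426 to 2.10 times the level of each factor in control replicates 1 and 3, with a median of 1.02. The median log2 fold change over all 17199 genes tested moved to -0.22, with 13.6% above 0. The median of the 9 factors was -0.00, with 4 above 0 (Pax2 0.24, Pou4f1 0.17, En1 0.12 and Lhx1 0.11) and 5 below it, from -0.00 for Lhx5 to -0.16 for Lbx1. No factor had an unadjusted limma p under 0.05 (0.238% of all genes higher, 4.82% lower), none passed adjustment (0% of genes in either direction), and none had groups that did not overlap (1.13% higher, 20.2% lower). The calls of Pax2 (limma adjusted p = 0.579) and Pou4f1 (adjusted p = 0.581) were thus lost under this scaling.

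With pan-neuronal scaling and control replicate 2 left out together, an alternative chosen after the data were seen, 1 factor was higher at an unadjusted p under 0.05, Pax2 (log2 fold change 0.37, SE 0.11, limma adjusted p = 0.315). Of all 16570 genes tested, 2.61% were higher and 9.14% lower by that rule. Pou4f1 had a log2 fold change of 0.27 (limma adjusted p = 0.427) and Lbx1 of -0.21 (adjusted p = 0.466). Pax2 and Pou4f1 were higher and Lbx1 lower without overlap, against 7.58% and 22% of all genes. The 9 factors had 5 log2 fold changes above 0 (35.4% of all genes) and a median of 0.01 against -0.06, and none passed an adjusted p under 0.05 (0% of genes lower, 0.00604% higher, Snora74a). Pax2 was therefore higher than the median gene in all 4 fits, with estimates of 0.53, 0.43, 0.24 and 0.37.

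**Figure D4:**
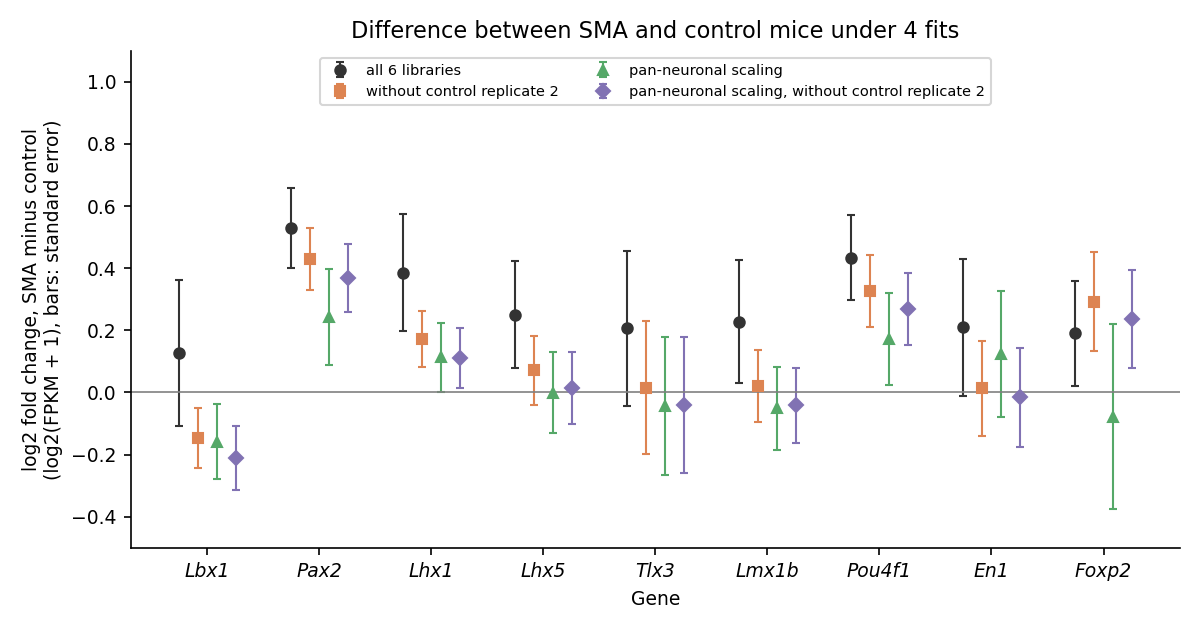
Points are the log2 fold change of SMA over control for each of the 9 factors and bars its standard error, in 4 fits: all 6 libraries, without control replicate 2, with pan-neuronal scaling, and with both. Pax2 lies above 0 in all 4 (0.24 to 0.53), while Lbx1 is at 0.13 in the first and at -0.15 to -0.21 in the others.

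Genes whose locus lies within 10 kb of a factor in the listed coordinates were read for the same comparison. Lhx1os, a long noncoding RNA on chr11:84525660-84535831 (plus strand), starts 124 bases from the Lhx1 start and is transcribed away from it, and its start lies inside the Lhx1 window printed above. It was at 2.44, 4.42 and 2.21 FPKM in control and 6.48, 8.19 and 4.81 FPKM in SMA. All SMA libraries lay above all control libraries, and the highest control library was control replicate 2, in which Lhx1 itself was lowest. The log2 fold change was 0.91 (SE 0.25, limma p = 0.00964, adjusted p = 0.683, exact permutation p = 0.1), 1.15 without control replicate 2 (SE 0.19, limma p = 0.000414, adjusted p = 0.221) and 0.64 with pan-neuronal scaling (SE 0.40, limma p = 0.159, adjusted p = 0.579), where the groups overlapped and the call was lost. With that scaling and control replicate 2 left out, the groups again did not overlap and the call returned (log2 fold change 1.097, SE 0.20, limma adjusted p = 0.230). The noncoding neighbour thus had a larger difference than any of the 9 factors in these fits, without passing adjustment. Whether the deposited FPKM used the strand of the reads is not given, so how fragments were assigned near the shared start of Lhx1 and Lhx1os, and in the overlap of Lhx5 with its antisense neighbour Gm27199, is unknown.

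The other 8 neighbours included 1 with an unadjusted p under 0.05, lower in SMA as 2.39% of all genes were. This was Gm12117, a single-exon gene 72168 bases from Tlx3 that shares its listed span with Ranbp17. Its level was 0.828, 0.856 and 1.29 FPKM in control and 0.392, 0.394 and 0.575 FPKM in SMA. The log2 fold change, taken on log2(FPKM + 1), was -0.45 (SE 0.18, limma adjusted p = 0.683), and the ratio of mean FPKM was 0.457. Gm12117 was lower in SMA with no overlap, while Tlx3 was not. C130021I20Rik, a transcript 681 bases from Lmx1b, was at 17.0, 9.81 and 17.1 FPKM in control and 16.0, 14.6 and 17.9 FPKM in SMA, low in control replicate 2 as Lmx1b was. Gm27199, which overlaps Lhx5 by 69 bases and was given a shared span with it, was at 4.17, 4.34 and 4.85 FPKM in control and 5.26, 3.85 and 6.62 FPKM in SMA. Anp32-ps, 191289 bases from Tlx3, also shared its listed span with Ranbp17. Aatf, Ranbp17, Anp32-ps, Gm12116 and Rnf219 had log2 fold changes of -0.24, 0.14, 0.15, 0.24 and 0.22, and of -0.24, 0.0487, 0.0628, 0.10 and 0.00326 without control replicate 2. Apart from Aatf, these values thus rested largely on that library.

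The 5 tested genes whose log2(FPKM + 1) most resembled the mean centred profile of the 9 factors over the 6 libraries were Pdzd4, Enc1, Vat1, Gm2897 and Neo1, with Pearson r from 0.998 to 0.999. That profile was 0.05, -0.45 and -0.03 in control and 0.15, 0.16 and 0.12 in SMA, so the likeness rests mainly on control replicate 2. Pdzd4 was at 22.0, 13.5 and 20.3 FPKM in control and 24.7, 24.4 and 23.5 FPKM in SMA. Control replicate 2 was the lowest library for each of these genes, at 51.8 FPKM for Enc1, 30.3 for Vat1, 3.09 for Gm2897 and 25.8 FPKM for Neo1.

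The lists of other spinal factors and their cofactors held 98 genes, of which 82 were tested. At an unadjusted limma p under 0.05, 4 were higher and 1 lower in SMA, beside 2 and 0 of the 9 factors and 3.4% and 2.39% of all genes. Without control replicate 2, 5 were higher and 2 lower, against 5.27% and 5.2% of all genes, so these lists lay near the share over all genes. The list of other postmitotic dorsal factors had 12 of 13 log2 fold changes above 0, where 58% of all genes were, with a median of 0.27. Without control replicate 2, 8 of 13 were above 0, against 50.4% of all genes, with a median of 0.11. Its 1 call was Pax8, a relative of Pax2 that acts with it in inhibitory dorsal neurons, at 6.82, 4.73 and 6.08 FPKM in control and 8.80, 8.52 and 8.07 FPKM in SMA. The groups did not overlap, and the log2 fold change was 0.47 (SE 0.14, limma adjusted p = 0.683), 0.35 without control replicate 2 (adjusted p = 0.360) and 0.20 with pan-neuronal scaling (adjusted p = 0.579), where the groups overlapped and the call was lost. It returned, without overlap, with that scaling and control replicate 2 left out (0.29, limma adjusted p = 0.384). Drgx, listed as Prrxl1 and expressed in the same excitatory neurons as Tlx3, was at 13.4, 8.29 and 11.4 FPKM in control and 12.7, 12.8 and 11.3 FPKM in SMA, with overlap.

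Factors that define later subtypes had a median of 0.13 over 27 tested (0.03 without control replicate 2), with 21 above 0 and 17 without that library. Mafa, which marks subsets of dorsal horn neurons among others, was the call among them over the 6 libraries (3.4% of all genes higher), at 18.2, 10.5 and 13.4 FPKM in control and 22.7, 27.6 and 22.4 FPKM in SMA (log2 fold change 0.77, SE 0.20, limma adjusted p = 0.683). It did not overlap between the groups, and it had a log2 fold change of 0.60 without control replicate 2 (adjusted p = 0.300) and 0.48 with pan-neuronal scaling. Leaving out control replicate 2, 3 of the later subtype factors were higher, against 5.27% of all genes. Factors of the ventral classes had a median of 0.08 over 11 tested and of -0.09 without control replicate 2, so that list turned direction with the library. Progenitor factors had 0 calls among 12 tested (3.4% of all genes higher, 2.39% lower) and a median of 0.11, and 1 lower call (5.2% of all genes) and a median of 0.00 without control replicate 2.

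LIM-domain and TALE cofactors, which bind Lhx1, Lhx5, Lmx1b and their relatives or the Hox proteins, were listed together with Tle1, Tle3 and Tle4. This list had a median of 0.23 over 19 tested and of 0.07 without control replicate 2. Ldb2, a bridging partner of LIM-homeodomain factors, was at 20.2, 14.9 and 14.8 FPKM in control and 25.7, 21.8 and 22.1 FPKM in SMA (log2 fold change 0.47, SE 0.15, limma adjusted p = 0.683, and 0.40 without control replicate 2). Lmo2, which binds the same partners and is also an erythroid gene, was at 16.4, 23.6 and 16.6 FPKM in control and 14.4, 12.9 and 14.3 FPKM in SMA (log2 fold change -0.40, SE 0.15, adjusted p = 0.683, and -0.24 without control replicate 2). Neither overlapped between the groups in FPKM. With pan-neuronal scaling both calls were lost, with 0.17 and overlapping groups for Ldb2 (limma adjusted p = 0.642) and -0.69 for Lmo2 (adjusted p = 0.579). With control replicate 2 also left out both returned without overlap, at 0.34 for Ldb2 (limma adjusted p = 0.421) and -0.30 for Lmo2 (adjusted p = 0.315). The highest Lmo2 value was in control replicate 2, where the erythroid gene Hbb-bs was at 7026 FPKM against 661 and 433 in the other control libraries and 424, 694 and 587 FPKM in SMA. Tal1, a ventral V2b factor that is erythroid as well, was at 13.7 FPKM in that library and from 1.95 to 3.50 FPKM in the others.

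Genes for transmitter synthesis and transport, which the factors specify, had 0 calls at an unadjusted p under 0.05 over 6 libraries, in either direction, among 6 inhibitory and 4 excitatory genes tested. Their medians were 0.27 and 0.30, and 3.4% of all genes were called higher and 2.39% lower in that fit. Without control replicate 2 the medians were 0.07 and 0.08, with 2 inhibitory genes called higher and 1 lower, and 1 excitatory gene higher, where 5.27% of all genes were higher and 5.2% lower. Gad1, which makes GABA, was at 62.5, 34.0 and 56.6 FPKM in control and 64.6, 66.4 and 64.1 FPKM in SMA. Slc6a5, the glycine transporter of inhibitory terminals, was at 63.9, 32.6 and 70.6 FPKM in control and 53.5, 61.2 and 60.9 FPKM in SMA, with a log2 fold change of 0.14 that was -0.20 without control replicate 2 (limma adjusted p = 0.451, unadjusted p under 0.05). Slc17a6, the glutamate transporter of excitatory neurons, was at 76.1, 38.3 and 65.9 FPKM in control and 71.0, 75.3 and 72.5 FPKM in SMA. Gad1 was thus slightly above, and Slc6a5 below, the other control libraries in SMA. The 20 pan-neuronal genes had a median of 0.30 and 0 calls, and a median of 0.07 with 4 higher and 1 lower without control replicate 2 (5.27% and 5.2% of all genes), close to the medians of the 9 factors, 0.23 and 0.07.

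**Figure D5:**
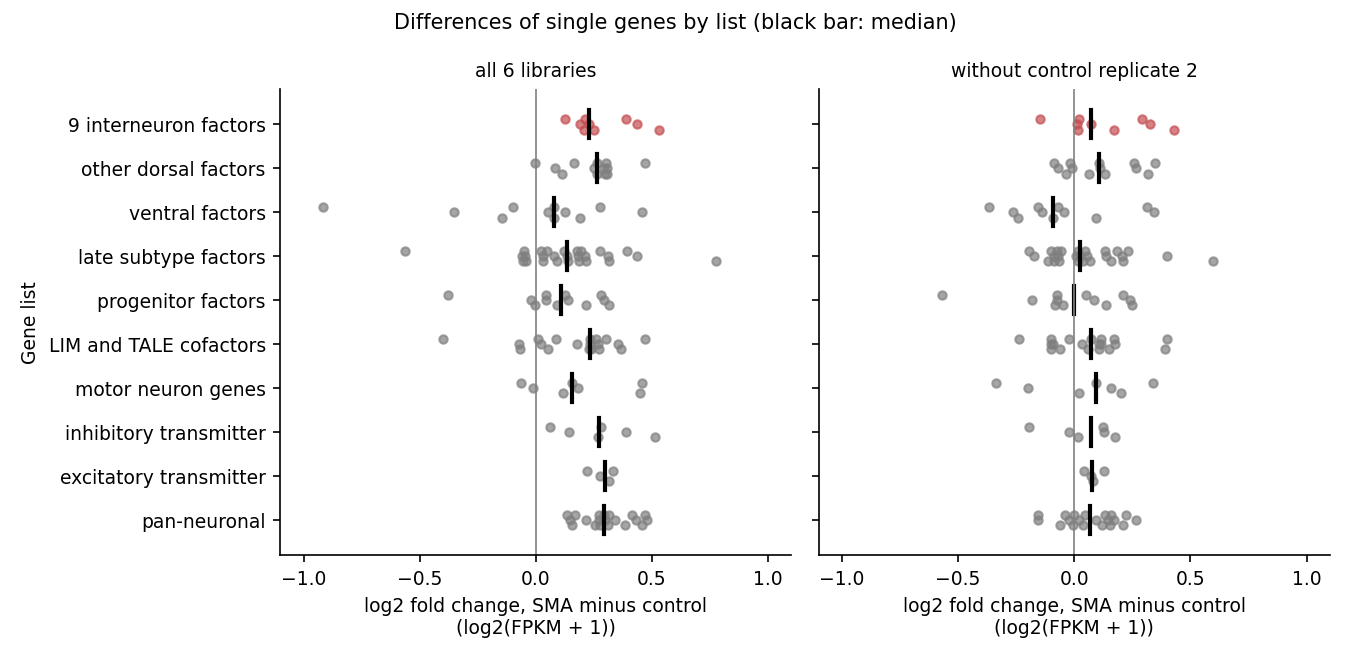
Each point is the log2 fold change of SMA over control of 1 gene, grouped into 10 lists with a black bar at the list median, over all 6 libraries on the left and without control replicate 2 on the right. The medians of the 9 factors (0.23 and 0.07) and of the pan-neuronal genes (0.30 and 0.07) move together between the panels.

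Motor neuron genes, the cells lost in the disease, had a median of 0.16 over 7 tested with 0 calls (3.4% of all genes higher, 2.39% lower). Without control replicate 2 the median was 0.09 and 1 was called lower (5.2% of all genes), Slc5a7, the choline transporter, at 9.38, 5.03 and 12.5 FPKM in control and 7.49, 8.38 and 9.32 FPKM in SMA (log2 fold change -0.34, limma adjusted p = 0.458, named after its values were seen). Slc18a3, the vesicular acetylcholine transporter, was at 9.07, 6.51 and 14.8 FPKM in control and 12.7, 14.9 and 13.1 FPKM in SMA. Control replicate 3, high for Slc18a3 and Tlx3 and low for Foxp2, was also highest in Hoxc10, a lumbar gene, at 23.7, 14.6 and 35.9 FPKM in control and 18.2, 21.8 and 21.1 FPKM in SMA, and in Hoxd10, at 26.1, 15.1 and 50.7 FPKM in control and 18.2, 27.0 and 24.0 FPKM in SMA. The cord Hox list had a median of 0.02 over 11 tested and 0 calls (3.4% of all genes higher, 2.39% lower). Without control replicate 2 it had a median of -0.05 with 8 below 0. In that fit 2 were called lower (5.2% of all genes), Hoxc10 (log2 fold change -0.50, limma adjusted p = 0.387) and Hoxd10 (-0.66, adjusted p = 0.448). The part of the stretch of cord sampled in the Tlx3 and Foxp2 values was not tested.

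Pax2, Pax8 and Lhx1 are also kidney genes, and kidney markers were low or not listed. The 6 listed of 9 kidney genes summed to 1.54, 1.93 and 1.17 FPKM in control and 1.63, 1.76 and 1.73 FPKM in SMA, Lrp2 was the most abundant at 0.559 to 1.34 FPKM, and Umod, Cdh16 and Aqp2 were listed in none of the 6 libraries. Lmx1b and En1 also mark hindbrain and midbrain neurons, and a list for brain above the cord summed to 11.97, 7.10 and 11.8 FPKM in control and 12.7, 12.2 and 12.5 FPKM in SMA. Neurod6, which is on the later subtype list too, made up most of that, at 9.04, 4.32 and 8.92 FPKM in control and 10.7, 9.50 and 9.75 FPKM in SMA, and Emx1, Otx2 and Fev were listed in none of the 6 libraries. The kidney sums overlapped between the groups through control replicate 2 only, and every SMA library lay above control replicates 1 and 3. The brain sums were above all control libraries in SMA by a small margin over control replicate 1, and Neurod6 by itself separated the groups in this way. Of the 3 brain genes tested, Neurod6 (log2 fold change 0.44) and Barhl1 (0.31) were above 0, and both are also on lists of spinal factors. The remaining gene, Slc6a4, was at -0.39, so the sums do not show more brain RNA in SMA across the list. The part of kidney and brain RNA in the values of the factors was not tested.

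At an unadjusted limma p under 0.05 over the 6 libraries, 3.4% of all genes were higher and 2.39% lower. Lists of non-neuronal cells had 0 calls in either direction. Their median log2 fold changes were 0.07 for 8 astrocyte genes, -0.29 for 7 oligodendrocyte genes, -0.69 for 6 Schwann cell genes and -0.05 for 6 microglia genes, and those of 24 hepatocyte and 9 erythroid genes were -2.43 and -1.53, set by control replicate 2. Without it these medians were 0.03, -0.42, -0.79, 0.0365, 0.15 and -0.29 in the same order, the last 2 over the 19 hepatocyte and 7 erythroid genes that then passed the filter. Calls in that fit were 1 higher and 1 lower among astrocyte genes, 2 lower among oligodendrocyte genes, 1 lower each among hepatocyte and erythroid genes, and 0 among Schwann cell and microglia genes, beside 5.27% higher and 5.2% lower over all genes. Over the sensory ganglion, kidney and brain lists, 3, 1 and 3 genes passed the filter, with 0 calls and medians of 0.15, 0.13 and 0.31. Without control replicate 2 these were -0.09, 0.20 and 0.13 over 3, 1 and 2 genes, again with 0 calls, so the sensory ganglion median turned direction with that library.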

How the data were processed

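The authors deposited FPKM computed per library with HISAT2 and Cufflinks on mm10 (versions not given in the sources used here) from ribosomal RNA-depleted, strand-specific libraries, and whether quantification used the strand is not given. Genes absent from a library were set to 0. Depth is unknown, since FPKM holds no counts, and the study's own test needs read counts, so its unpaired design was kept with limma 3.58.1 in R 4.3.3. Values were log2(FPKM + 1), genes averaging 0.5 FPKM or more were tested with a variance trend, and two-sided p-values were adjusted after Benjamini-Hochberg over all of them. Exact permutation ran over 20 assignments of libraries (smallest p 0.1). Tables and plots used Python 3.11.15, numpy 2.4.6, pandas 2.3.3 and matplotlib 3.10.9. The procedure was tested on simulated data. Correlations of deviations between libraries of the same replicate number were -0.0370, 0.0161 and 0.0766, so numbers were not taken as pairs.

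The members and the 19 other lists were chosen with earlier results of these data known, and 1 listed gene was matched by an older symbol. Named genes are Smn1, all members, genes within 10 kb of them, the 5 genes of most similar profile, and from each list the 4 of highest mean FPKM and up to 3 per direction with an unadjusted p under 0.05, of which some are given in the text, picked after their values were seen. Others are named as chosen after their values were seen. Alternatives were a pseudocount of 0.1, no minimum or a minimum of 1 FPKM, median ratio, quantile and pan-neuronal scaling, the replicate number as a block and leaving out each library. Pan-neuronal scaling without control replicate 2 was added after the data were seen. The single-cell libraries and other experiments of the study were not analysed here.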

Additional observations from a re-analysis of the deposited data

How the results depend on the processing

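Pax2 (log2 fold change 0.24 to 0.65, adjusted p 0.300 to 0.907), Pou4f1 (0.17 to 0.52, adjusted p 0.422 to 0.907) and Lhx1 (0.11 to 0.52) kept their direction under every alternative run. Factors higher at an unadjusted limma p under 0.05 numbered 2, but 0 with pan-neuronal scaling, 1 with that scaling and no control replicate 2, and 1 to 3 when a library was left out (1 without SMA replicate 3), and 0 were lower throughout. With pan-neuronal scaling the log2 fold change turned negative for Lhx5 (-0.000823), Lbx1 (-0.16), Lmx1b (-0.0511), Tlx3 (-0.0449) and Foxp2 (-0.0778), and with control replicate 2 also left out for Lbx1 (-0.21), Lmx1b (-0.0414), Tlx3 (-0.0406) and En1 (-0.0156). Leaving out a library put Lbx1 between -0.15 (control replicate 2) and 0.31 (control replicate 1). Over all genes, 409 were lower, 829 with pan-neuronal scaling, 1514 with that and no control replicate 2, and 125 to 862 when a library was left out. Of all genes 581 were higher, 882 with no minimum, 41 with pan-neuronal scaling, 356 with the replicate block, and 214 to 1040 when a library was left out. Among the other factor lists 1 was lower (0 with pan-neuronal scaling, 0 with the replicate block, 4 with that scaling and no control replicate 2, 0 to 3 when a library was left out) and 4 higher (1 with pan-neuronal scaling, 3 to 11 when a library was left out). Genes higher at an adjusted p under 0.05 numbered 0, 1 with pan-neuronal scaling and no control replicate 2, and 0 to 2 when a library was left out. The cause was not tested. En1 was not tested at a minimum mean of 1 FPKM. The balance had no value of its own under the filters and the replicate block, and FPKM gives no depth.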
